A study of Mus musculus with 4 samples.

Results

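Genes of the primary cilium and of polycystic duct disease were followed through development of the mouse pancreas. The 10 genes were taken by name (Pkhd1, Pkd1, Pkd2, Bicc1, Dcdc2a, Ift88, Kif3a, Rfx3, Arl13b and Foxj1) from the 54532 gene IDs of the deposited tables. RNA had been sequenced from fetal pancreas of wild-type C57BL/6 mice at 3 mid-gestation stages, E11.5, E13.5 and E15.5 (E, embryonic day), and shortly before birth at E18.5, and the series names the material as pancreatic epithelium. All groups share genotype and strain and differ by label in stage alone, with 1 labelled sample per stage. Any difference in dissection, batch or purity therefore cannot be told apart from stage. Each sample gives 1 mean FPKM per gene, a read count divided by the gene's length and the library's depth, and the values show that each mean averages 2 libraries counted in whole reads.

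The primary cilium is a single antenna of microtubules on the apical face of most epithelial cells. It is built and maintained by intraflagellar transport, in which kinesin-2 carries trains of IFT proteins outward and dynein-2 returns them. The BBSome and a gate at the base, the transition zone, sort membrane proteins into it. In the pancreas, primary cilia stand on duct and endocrine cells and are missing from mature acinar cells, and loss of ciliary genes in mice gives dilated, cystic ducts. The polycystins and fibrocystin are membrane proteins of the cilium whose genes are mutated in polycystic kidney disease, with cysts in liver and pancreas as well.

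The start regions of the members are shown first. The letters searched in them were chosen after sequences were seen, so the shares of windows given here are a description. RefSeq windows (GRCm38.p6, 250 bases before to 50 after the start site) were matched for 8 of the 10 members, leaving Bicc1 and Foxj1. The hexamer GTTGCC, an arm of the X-box bound by RFX factors, was searched on both strands, with GGCAAC as its complement. It was found in 4 of 8 member windows and in 12.5% of all 32851 windows. The stretches below hold it in capitals, 5′ to 3′ on the strand of the gene, at chr11:53567259-53567288 (plus), chr14:57424080-57424109 (plus), chr16:62847204-62847233 (minus) and chr19:28011118-28011147 (minus) in this order.
Kif3a: caccccgcaggcGTTGCCccagtctagcgt
Ift88: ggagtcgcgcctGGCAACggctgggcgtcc
Arl13b: acagacgctccaGTTGCCtagttaccagag
Rfx3: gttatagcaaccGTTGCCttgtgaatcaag
The match began 98 bases before the start site in Kif3a and 181 before it in Arl13b, and 21 bases after it in Ift88 and 31 after it in Rfx3. The windows of Pkhd1, Pkd1, Pkd2 and Dcdc2a did not hold these letters. The forkhead letters TGTTTAC (complement GTAAACA) were in 0 of 8 member windows and in 3.65% of all windows.

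The estimated reads of the libraries ran from 1.37e+07 at E15.5 to 1.80e+07 at E13.5, and every member could be split into whole reads at every stage. No label says that the libraries of a stage came from separate embryos, so SDs (n = 2) and p-values reflect the spread between these libraries alone, which may be technical. Levels are scaled FPKM, and a call means a Benjamini-Hochberg adjusted p below 0.05 in limma over 13158 genes. A filter kept genes at 1 FPKM or more at any stage, and Pkhd1, Pkd1 and Foxj1 passed it only through their E18.5 value. Marker lists moved with stage as well. The summed level of 8 duct and trunk markers was 203, 4748, 2018 and 17646 FPKM in the order of stages. That of 6 acinar markers was 4.39, 4030, 95109 and 45011, and that of 7 endocrine markers 385, 3537, 2520 and 25275. The medians of the duct and trunk markers were 7.22, 47.5, 42.8 and 134. Those of the acinar markers were 0.374, 504, 4684 and 2597, and those of the endocrine markers 20.4, 110.5, 148.6 and 1126. From E13.5 to E15.5 the endocrine median thus rose where the sum fell. The 5 epithelial markers summed to 1030, 2617, 3220 and 3752. Markers of neurons and neural crest summed to 1241 at E11.5 and to 11.9 to 50.9 later, with all 7 at 1 FPKM or more at E11.5, and 7 mesenchymal markers to 209 at E11.5 and 40.3 to 68.2 later. The 5 markers of otic and other ciliated epithelium summed to 1379 at E11.5, with 5 at 1 FPKM or more, and to 322 to 534 later, with 1 at that level at each stage. Erythroid markers summed to 9494 at E11.5 and 168 to 308 later, and mesothelial markers to 20.7 and then 0.605 to 2.85. In such bulk samples fewer cells of a type and less RNA per cell cannot be told apart, and the part of the cell makeup in the results below was not tested.

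Among the membrane proteins, Pkhd1 had the widest range. It encodes fibrocystin, the protein of recessive polycystic kidney disease (ENSMUSG00000043760, chromosome 1, 20057779 to 20618064, mm10). Pkhd1 was at 0.0152 and 0.0234 FPKM in the E11.5 libraries, 0.468 and 0.608 in those of E13.5, 0.700 and 0.670 in those of E15.5, and 1.93 and 2.30 in those of E18.5. The E11.5 libraries were the lowest and the E18.5 libraries the highest, with no overlap between stages. From E11.5 to E13.5 the reads went from 10 to 275, a 27.7-fold difference per unit of depth with an exact 95% interval of 14.8 to 58.3 that covers counting error only. On the log2(FPKM + 1) scale, which understates such low levels, it rose by 0.59 (SE 0.0852, limma adjusted p = 0.000902). From E13.5 to E15.5 the difference was 0.13 (limma adjusted p = 0.230). It rose again to E18.5, by 0.88 (SE 0.0852, limma adjusted p = 0.000155), which is 3.08-fold in level.

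Pkd1 encodes polycystin-1, the large receptor-like partner of the channel (ENSMUSG00000032855, chromosome 17, 24549834 to 24596508). It was at 0.740 and 0.709 FPKM in the E11.5 libraries, 0.814 and 0.911 in those of E13.5, 0.842 and 0.648 in those of E15.5, and 1.59 and 1.60 in those of E18.5. The first 3 stages lay close together and were not called different from their neighbours in level. The E18.5 libraries stood above all others, 2.14-fold higher than E15.5 (log2 difference 0.58, SE 0.0769, limma adjusted p = 0.000685). Of its exon bases, 3.98% are shared with Tsc2 on the opposite strand. No source used here states whether the counting used strand, so reads from that stretch cannot be told apart.

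Pkd2 encodes polycystin-2, the channel subunit that pairs with polycystin-1 (ENSMUSG00000034462, chromosome 5, 104459450 to 104505819). It was at 1.78 and 2.01 FPKM in the E11.5 libraries, 3.46 and 3.64 in those of E13.5, 2.36 and 2.48 in those of E15.5, and 3.52 and 3.59 in those of E18.5. Pkd2 thus rose 1.87-fold to E13.5 (limma adjusted p = 0.000130), fell to E15.5 (log2 difference -0.41, limma adjusted p = 0.00196) and rose by 0.41 to E18.5 (limma adjusted p = 0.00125). The E13.5 and E18.5 libraries overlapped and their means lay 0.00 apart in log2 (SE 0.0630, limma adjusted p = 0.990). At every stage its level per length was above that of Pkd1, 3.55 ± 0.0443 against 1.60 ± 0.00528 FPKM (SD, n = 2) at E18.5. Unlike Pkhd1, its E18.5 level did not exceed that of E13.5.

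**Figure D1:**
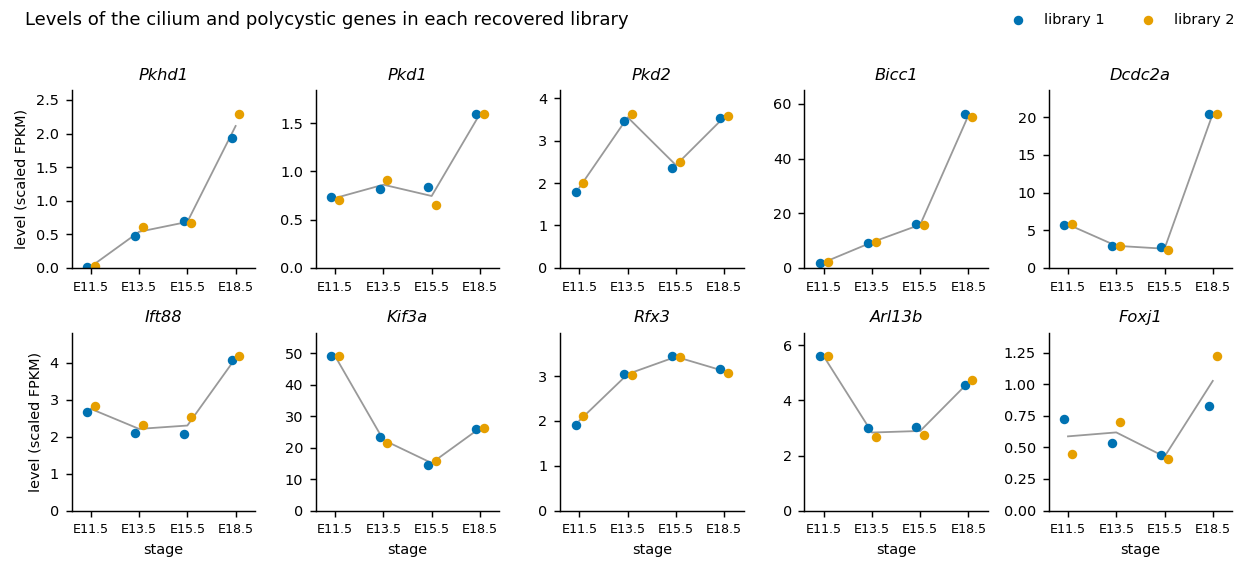
Levels of the 10 genes (vertical axis, scaled FPKM, from 0) by stage (horizontal axis), with a dot for each of the 2 recovered libraries and a line through their mean. Bicc1 reached 55.8 FPKM and Dcdc2a 20.4 at E18.5, Kif3a was highest at E11.5 at 49.1, and the libraries of Foxj1 lay farthest apart for their level.

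Bicc1 showed a rise at every step. It encodes an RNA-binding protein that represses translation of target mRNAs, and its loss gives cysts in kidney and pancreas of mice (ENSMUSG00000014329, chromosome 10, 70922832 to 71159700). Bicc1 was at 1.93 and 2.12 FPKM in the E11.5 libraries, 9.23 and 9.53 in those of E13.5, 15.9 and 15.7 in those of E15.5, and 56.5 and 55.2 in those of E18.5. No libraries of different stages overlapped. It rose 4.64-fold to E13.5 (log2 difference 1.78, SE 0.0441, limma adjusted p = 4.04e-07), 1.69-fold to E15.5 (0.70, limma adjusted p = 5.90e-05) and 3.52-fold to E18.5 (1.75, SE 0.0441, limma adjusted p = 1.38e-06). With libraries set to the same FPKM total, the step from E13.5 to E15.5 was 0.12 and no longer called (limma adjusted p = 0.0563). It shares 4.69% of its exon bases with 4930533K18Rik on the opposite strand.

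Dcdc2a, a doublecortin-domain gene whose protein binds ciliary microtubules and whose human counterpart is mutated in nephronophthisis and neonatal sclerosing cholangitis (ENSMUSG00000035910, chromosome 13, 25056004 to 25210706), followed another course. It was at 5.66 and 5.87 FPKM in the E11.5 libraries, 2.94 and 2.92 in those of E13.5, 2.74 and 2.36 in those of E15.5, and 20.5 and 20.4 in those of E18.5. The E18.5 libraries were the highest and the E11.5 libraries came next. Dcdc2a fell to E13.5 (log2 difference -0.78, SE 0.0600, limma adjusted p = 4.40e-05), was not called at E15.5 (-0.15, limma adjusted p = 0.0739, and called at -0.23 without library 1 of E15.5) and rose 8.03-fold to E18.5 (2.60, SE 0.0600, limma adjusted p = 1.29e-06). This was the largest difference of the 10 genes in the 4 comparisons on the log2(FPKM + 1) scale, while in plain fold the first step of Pkhd1 was larger. Beside it stands Dcx, the neuronal doublecortin, at 9.61 ± 0.0245 FPKM at E11.5 (SD, n = 2) and 0.892 at E13.5. Dcx also rose from 0.640 at E15.5 to 2.82 at E18.5.

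The members that build the cilium, Kif3a, Arl13b and Ift88, all fell from E11.5 to E13.5, the last of them only at the threshold. Markers of neurons and neural crest and of otic and other ciliated epithelium were higher at E11.5 as well, and their part in these falls was not tested. Kif3a encodes a motor subunit of kinesin-2, which also moves cargo in axons (ENSMUSG00000018395, chromosome 11, 53567379 to 53601967). It was at 49.1 and 49.1 FPKM in the E11.5 libraries, 23.5 and 21.4 in those of E13.5, 14.6 and 15.6 in those of E15.5, and 26.0 and 26.4 in those of E18.5. No stages overlapped, and it had the highest level per length of the members at E11.5. Kif3a fell by 1.10 on the log2 scale to E13.5 (SE 0.0546, limma adjusted p = 6.48e-06) and by 0.54 to E15.5 (limma adjusted p = 0.000347). It then rose by 0.76 to E18.5 (SE 0.0546, limma adjusted p = 4.36e-05). The rise from E13.5 to E18.5 was 0.22 (limma adjusted p = 0.0138), and with equal FPKM totals it turned to -0.22 (limma adjusted p = 0.0120). That rise was also lost with deposited FPKM (0.12, limma adjusted p = 0.0932), and without library 2 of E13.5 (limma adjusted p = 0.0630) or library 2 of E18.5 (limma adjusted p = 0.0628).

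Arl13b encodes a small GTPase of the ciliary membrane that is altered in Joubert syndrome (ENSMUSG00000022911, chromosome 16, 62793685 to 62847040). It was at 5.61 and 5.60 FPKM in the E11.5 libraries, 2.98 and 2.69 in those of E13.5, 3.04 and 2.75 in those of E15.5, and 4.58 and 4.74 in those of E18.5. The middle stages overlapped and lay below both ends of the span. Arl13b fell by 0.79 to E13.5 (SE 0.0633, limma adjusted p = 5.60e-05) and rose by 0.54 from E15.5 to E18.5 (limma adjusted p = 0.000373), and the E11.5 level stayed above that of E18.5 (limma adjusted p = 0.0168).

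Ift88 encodes a core subunit of the outward IFT-B train, the gene disrupted in the Oak Ridge polycystic kidney mouse (ENSMUSG00000040040, chromosome 14, 57424062 to 57517936). It was at 2.68 and 2.83 FPKM in the E11.5 libraries, 2.10 and 2.31 in those of E13.5, 2.06 and 2.54 in those of E15.5, and 4.07 and 4.18 in those of E18.5. The 3 earlier stages were within 2.06 to 2.83 and E18.5 was above them. Ift88 rose by 0.64 from E15.5 to E18.5 (SE 0.0830, limma adjusted p = 0.000599). Its difference of -0.23 from E11.5 to E13.5 was at the threshold (limma adjusted p = 0.0487) and was lost with deposited FPKM (-0.19, limma adjusted p = 0.0901), with a pseudocount of 0.1 (limma adjusted p = 0.0529) and without any 1 of the 4 libraries (-0.27 to -0.18). Ift88os on the opposite strand shares 1.45% of its exon bases.

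The transcription factor genes Rfx3 and Foxj1 did not reach a 2-fold difference on the log2(FPKM + 1) scale in any of the 4 comparisons. Rfx3 encodes a factor that switches on genes of ciliary assembly and is needed for endocrine cells in mice (ENSMUSG00000040929, chromosome 19, 27761721 to 28011166). Rfx3 was at 1.91 and 2.11 FPKM in the E11.5 libraries, 3.06 and 3.04 in those of E13.5, 3.45 and 3.42 in those of E15.5, and 3.16 and 3.06 in those of E18.5. E11.5 was the lowest, and the 3 later stages were not called different from their neighbours in level. It rose by 0.43 to E13.5 (SE 0.0563, limma adjusted p = 0.000586). Its difference of -0.11 from E15.5 to E18.5 was not called (limma adjusted p = 0.134), but with deposited FPKM it was -0.18 and called (limma adjusted p = 0.0277). Foxj1 encodes the forkhead factor of motile cilia (ENSMUSG00000034227, chromosome 11, 116330704 to 116335399). Its reads were few, from 27 over both libraries at E15.5 to 69 at E18.5. Foxj1 was at 0.728 and 0.447 FPKM in the E11.5 libraries, 0.538 and 0.700 in those of E13.5, 0.444 and 0.410 in those of E15.5, and 0.832 and 1.22 in those of E18.5. The first 2 stages overlapped, and no stage was called different from its neighbour in level. The rise from E15.5 to E18.5 (0.50, SE 0.129, limma adjusted p = 0.0129) was 2.40-fold by reads with an exact 95% interval of 1.52 to 3.89, and it was lost without library 2 of E15.5 (limma adjusted p = 0.0565) or library 2 of E18.5 (limma adjusted p = 0.0633).

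Counted by comparison, 4 of the 10 members rose from E11.5 to E13.5 (Pkhd1, Pkd2, Bicc1 and Rfx3) and 4 fell (Dcdc2a, Ift88, Kif3a and Arl13b). Over all tested genes 30.7% rose and 37.2% fell. The median log2 difference was 0.07 for the members and -0.04 for all tested genes. From E13.5 to E15.5 only Bicc1 rose, and Pkd2 and Kif3a fell, where 28.4% of all tested genes rose and 26.8% fell. With equal FPKM totals 0 members rose and 8 fell in that step, where 8.5% of all tested genes rose and 60.5% fell. The median of all tested genes then moved from 0.00 to -0.40. From E15.5 to E18.5 9 of 10 members rose, all but Rfx3, and 0 fell, against 38.3% and 29.8% of all tested genes, with medians of 0.61 and 0.06. Pkhd1, Pkd1 and Foxj1 passed the filter only through E18.5, so the filter favours their rise to that stage, from E13.5 as well. With equal totals the counts from E15.5 to E18.5 were again 9 and 0, against 44.7% and 22.2% of all tested genes. From E13.5 to E18.5 7 rose and 0 fell, against 36% and 23.7%, and with equal totals 6 rose and 3 fell (Pkd2, Kif3a and Rfx3). In that setting 17.8% of all tested genes rose and 47.3% fell. The libraries of both stages did not overlap for 9, 7, 10 and 9 of the 10 members in these comparisons, and for 85.2%, 77.9%, 82.6% and 79.8% of all tested genes.

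**Figure D2:**
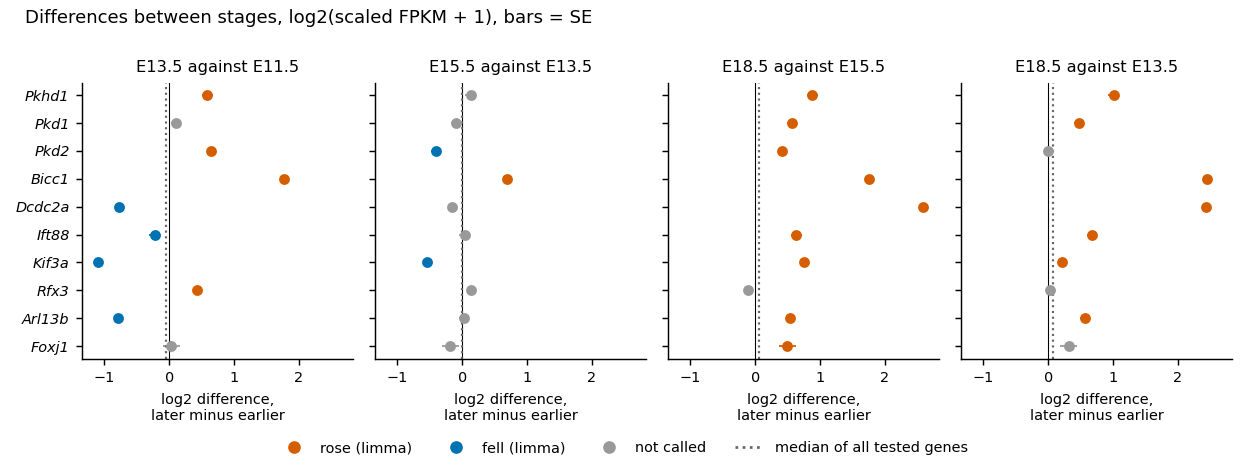
Log2 difference of each member (later minus earlier stage, log2 of scaled FPKM + 1, bars are the SE from limma) in the 4 comparisons, coloured by the call, with the median of all tested genes dotted. At E18.5 against E15.5 the points of 9 members lie right of 0, led by Dcdc2a at 2.60 and Bicc1 at 1.75.

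A 2-fold difference on the log2(FPKM + 1) scale was reached by few members. From E11.5 to E13.5 it was reached by Bicc1 upward and Kif3a downward, against 20.2% of 14838 measured genes in either direction. No member reached it from E13.5 to E15.5, against 7.48%. Bicc1 and Dcdc2a reached it upward from E15.5 to E18.5, against 17.1%, and both with Pkhd1 from E13.5 to E18.5, against 12.7%. To order the levels, E15.5 and E18.5 were also compared with E11.5, where 36.9% and 36.8% of tested genes rose and 40.7% and 37.8% fell.

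Further genes of the transport machinery were taken from lists of complexes. The lists here and below also count the members Ift88, Kif3a, Arl13b, Rfx3, Foxj1 and Bicc1, each in the list it belongs to. Of 17 IFT-B genes tested, 4 rose and 7 fell from E13.5 to E15.5, and 9 rose and 2 fell from E15.5 to E18.5, with medians of -0.06 and 0.30. The shares of all tested genes that stand beside these counts and those below are 28.4% and 26.8% in the first of these steps and 38.3% and 29.8% in the second. With equal totals 0 rose and 14 fell and then 12 rose and 0 fell. The shares of all tested genes with equal totals, here and below, are 8.5% and 60.5%, and then 44.7% and 22.2%. Ttc30b, an IFT-B subunit gene, fell from 4.19 ± 0.208 to 1.78 ± 0.117 FPKM and rose to 10.2 ± 0.571 in these steps (SD, n = 2). Ift57 and Ift81 rose in the last step as well, from 8.92 ± 0.431 to 27.7 ± 1.64 and from 4.62 ± 0.126 to 12.3 ± 0.451. Ift74 was highest at E11.5, like Kif3a, at 54.5 ± 0.678, and fell to 25.0 ± 0.741 at E13.5. Ift20, the IFT-B gene with the highest level, went the other way and rose to 84.6 ± 4.92 at E15.5, from 50.9 ± 0.977 at E11.5 and a like level at E13.5, and was at 90.1 ± 3.27 at E18.5. Of 6 IFT-A genes tested, which return cargo to the base, 0 rose and 3 fell and then 3 rose and 0 fell, and with equal totals 0 rose and 5 fell and then 4 rose and 0 fell. Ift43 was at 41.9, 27.6, 21.9 and 32.3 FPKM and Wdr35 at 2.73, 2.29, 1.83 and 3.24 in the order of stages. Of 9 motor genes tested, 2 rose and 4 fell to E15.5, and 6 rose and 0 fell to E18.5, and with equal totals 0 rose and 8 fell and then 7 rose and 0 fell. The dynein light chain genes with the highest levels, which serve other dyneins too, differed from this: Dynlrb1 rose from 179 ± 9.36 to 213 ± 5.46 at E15.5 and was not called at E18.5, and Dynll1, with no test, was at 132 at E15.5 and 103 at E18.5. Dync2li1, a dynein-2 subunit gene that had no test, was at 41.3, 27.1 and 82.4 FPKM at the last 3 stages.

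The BBSome and transition zone lists had medians below that of all measured genes at E15.5 and above it at E18.5. The BBSome list holds subunits of the complex and also Mkks, Bbs10, Bbs12, Lztfl1 and Arl6, genes of its assembly, regulation or recruitment. Of 11 genes of this list tested, 0 rose and 9 fell from E13.5 to E15.5. The median log2 difference was -0.47 over 13 measured genes. From E15.5 to E18.5 9 rose and 0 fell, with a median of 0.79, where the medians of all measured genes were 0.00 and 0.04. Bbs7 went from 2.45 ± 0.311 to 0.618 ± 0.0191 and 3.02 ± 0.635 FPKM over these stages, and Ttc8 from 7.83 ± 0.507 to 4.90 ± 1.18 and 12.3 ± 0.762. Bbs2, Bbs4 and Arl6, a GTPase gene of BBSome recruitment, also fell and then rose, to 7.03 ± 0.490, 5.37 ± 0.348 and 28.2 ± 0.120 at E18.5. Bbip1, with no test, was at 21.5, 20.2, 24.8 and 26.3 in the order of stages. Of 16 transition zone genes tested, 2 rose and 9 fell to E15.5 and 13 rose and 0 fell to E18.5, with medians of -0.32 and 0.64. With equal totals the BBSome counts were 0 rose and 11 fell and then 9 rose and 0 fell, and of the transition zone genes 0 rose and 15 fell and then 15 rose and 0 fell. Tmem231, a membrane protein gene of the gate, rose from 1.34 ± 0.193 to 4.61 ± 0.129 in the last step. Tctn3 and B9d2 rose to 5.64 ± 0.572 and 40.3 ± 3.85 in it, Iqcb1 was highest at E11.5 at 20.0 ± 0.783, and Tmem138, with no test, was at 37.3, 30.5, 23.5 and 30.2 in the order of stages. Tmem107 rose at each step and went from 23.3 ± 1.46 at E13.5 to 48.1 ± 0.804 at E18.5. Of 11 genes of ciliary GTPases and their cargo tested, 0 rose and 5 fell to E15.5, and 6 rose and 0 fell to E18.5, and with equal totals 0 rose and 10 fell and then 8 rose and 0 fell. Unc119, a carrier of lipid-modified cargo, fell from 46.0 ± 1.16 at E11.5 to 18.3 ± 0.888 at E13.5. Arl3 was at 130, 92.0, 84.8 and 116 and Rab11a at 53.5, 82.5, 65.4 and 95.6 in the order of stages, both with no test. The list also holds Cystm1, which is not a ciliary GTPase or a known cargo of the cilium. Cystm1 was at 69.3, 58.7 and 134 at the last 3 stages, had no test and is not among the 11 tested genes. Tulp3, which stands in this list and in that of IFT-A, passed the filter only through E18.5. Cys1, the cystin gene that is mutated in a mouse model of polycystic kidney disease, was at 0.542 ± 0.00904, 4.85 ± 0.335, 3.56 ± 0.202 and 9.81 ± 0.117 in the order of stages.

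Genes of the basal body, the centriole that anchors the cilium, had other counts. Of 13 tested, 3 rose and 4 fell from E13.5 to E15.5, and 2 rose and 6 fell from E15.5 to E18.5, with medians of 0.02 and -0.14 that were -0.44 and 0.00 with equal totals. The counts with equal totals were 0 rose and 11 fell, and then 5 rose and 3 fell. Cep19, a gene of the mother centriole, was at 33.8 ± 1.18 FPKM at E18.5. Ninl fell from 3.44 ± 0.225 at E11.5 to 1.10 ± 0.0303 at E13.5, and Cep89 was at 10.4, 9.08, 7.59 and 7.94 in the order of stages. From E11.5 to E13.5 0 rose and 11 fell of these genes, where 30.7% of all tested genes rose and 37.2% fell. No test compared this list with the others. With equal totals, the medians of the BBSome, transition zone and IFT-B lists from E13.5 to E15.5 were -0.85, -0.78 and -0.55, where that of all measured genes was -0.41, and from E15.5 to E18.5 they were 0.83, 0.73 and 0.37, where it was 0.15. Between E13.5 and E18.5 the same lists had medians of 0.36, 0.24 and 0.33, which turned to -0.06, -0.10 and -0.10 with equal totals, where the median of all measured genes went from 0.06 to -0.24. The summed duct and trunk markers were lower at E15.5 and higher at E18.5 in the same samples. Their median changed less from E13.5 to E15.5, from 47.5 to 42.8. The acinar markers were highest at E15.5. The part of these markers in the lists was not tested.

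**Figure D3:**
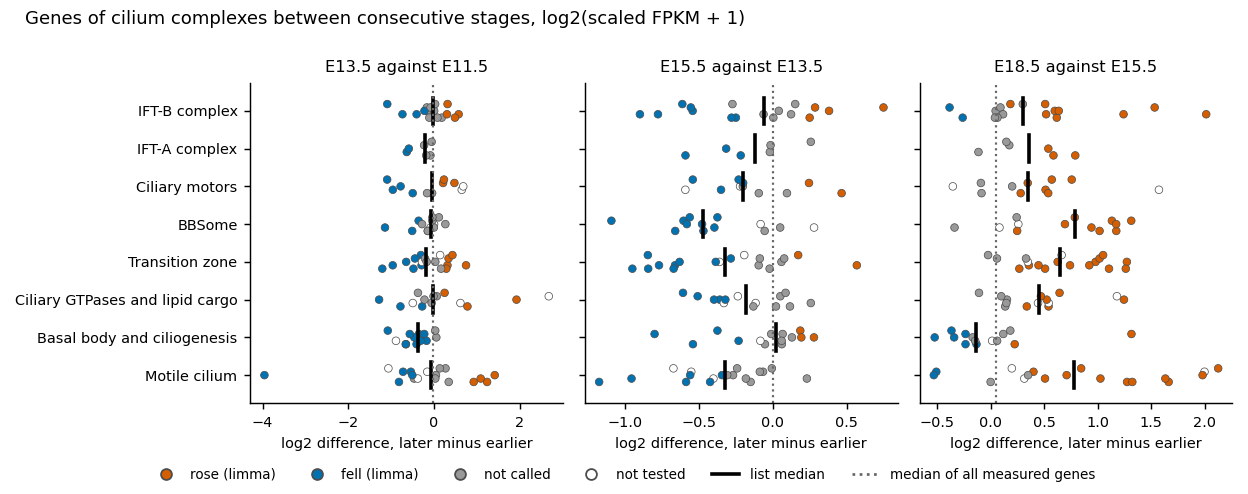
Log2 differences of single genes (dots, coloured by limma call, white where not tested) of 8 lists of cilium parts between consecutive stages, with the list median as a bar and the median of all measured genes dotted. The horizontal scales differ between panels. The BBSome median lies at -0.47 at E15.5 against E13.5 and at 0.79 at E18.5 against E15.5, and that of the basal body list at 0.02 and -0.14.

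Motile cilium genes, which include the axonemal dyneins and parts that Foxj1 is known to switch on, had levels over a wide range. Of 34 found, 16 stayed below 1 FPKM at every stage. Of 15 tested, 0 rose and 6 fell from E13.5 to E15.5, and 11 rose and 2 fell from E15.5 to E18.5, and with equal totals 0 rose and 13 fell and then 12 rose and 2 fell. Of those tested, 3 (Foxj1, Dnaic1 and Ccdc113) passed the filter only through E18.5, so the filter favours their rise to that stage. Rsph9, a radial spoke gene, rose from 5.82 ± 0.554 to 28.8 ± 0.525 FPKM in the last step. Tekt2, a gene of axonemal filaments, rose from 7.53 ± 0.103 to 25.4 ± 2.15. Drc1 and Cfap126 rose in that step to 6.74 ± 0.948 and 5.94 ± 0.455, while Tekt1 fell from 3.82 ± 0.344 at E13.5 to 1.13 ± 0.115 at E15.5 and was then not called, and Cfap52 was at 0.526, 3.07, 2.28 and 3.18 in the order of stages. Ccdc40, with no test, was at 4.02, 1.40, 0.506 and 0.725. Rsph1, which had no test, was at 2.94, 1.69 and 9.73 at the last 3 stages. Tppp3, a tubulin-binding protein gene of the list, fell from 52.2 ± 3.61 at E11.5 to 2.43 ± 0.148 at E13.5. Of the factor genes, Rfx6, which is required for islet cells, was at 0.654 ± 0.0401, 9.86 ± 1.23, 5.53 ± 0.202 and 16.8 ± 0.0134 in the order of stages. E2f4 fell at every step, from 53.7 ± 0.919 at E11.5 to 24.6 ± 0.104 at E18.5. E2f5 was at 60.6, 34.3, 17.0 and 27.8 in the order of stages, and Myb fell from 2.21 ± 0.244 at E15.5 to 0.240 ± 0.0564 at E18.5. In that list 4 rose and 4 fell of 10 tested from E15.5 to E18.5, where Foxj1 and Rfx2 passed the filter only through E18.5.

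Regulators of cystic disease stand beside the duct members. Of 11 tested, 6 rose and 1 fell from E11.5 to E13.5, 4 rose and 5 fell to E15.5, and 9 rose and 2 fell to E18.5. With equal totals these counts were 6 rose and 2 fell, 0 rose and 9 fell, and 9 rose and 1 fell. In the first of these steps 30.7% of all tested genes rose and 37.2% fell, and with equal totals 26.7% and 44.6%. The polycystic liver and kidney genes of the endoplasmic reticulum had other counts, of which 5 rose and 0 fell of 8 tested from E13.5 to E15.5 and 2 rose and 4 fell from E15.5 to E18.5. With equal totals 1 rose and 6 fell and then 3 rose and 2 fell. Sec61b, a subunit of the translocation channel, rose from 85.5 ± 11.6 to 243 ± 4.04 and fell to 122 ± 2.88, and Dnajb11, with no test, was at 61.8 at E13.5, higher at E15.5 and at 81.2 at E18.5. Of the 10 polycystin and fibrocystin family genes, 6 stayed below 1 FPKM at every stage.

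Members past the 2-fold rule were set beside the 3 protein-coding genes with the nearest profile, by root mean square distance of the centred log2 values over 4 stages, among 12490 genes. With 4 points many genes lie close, and the distance is a description. The values are log2(FPKM + 1), which understates low levels, so near genes can differ in plain fold. For Pkhd1 these were Ltk, Ubl3 and Dynlrb2, at distances of 0.0440, 0.0465 and 0.0529. Dynlrb2, a dynein light chain gene, was at 0.501, 1.06, 1.31 and 3.23 FPKM in the order of stages. Among those of Bicc1 were Rasd1, the nearest, and Cd14 (0.0963 and 0.127). For Dcdc2a they were Gabrp, Ccn2 and Pdgfd (0.0871, 0.146 and 0.156), of which Gabrp, a GABA receptor subunit gene, reached 4.98 FPKM at E18.5 after a listed value of 0 at E13.5. For Kif3a they were Trim13, Stx12 and Efnb3 (0.0255, 0.0348 and 0.0507).

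**Figure D4:**
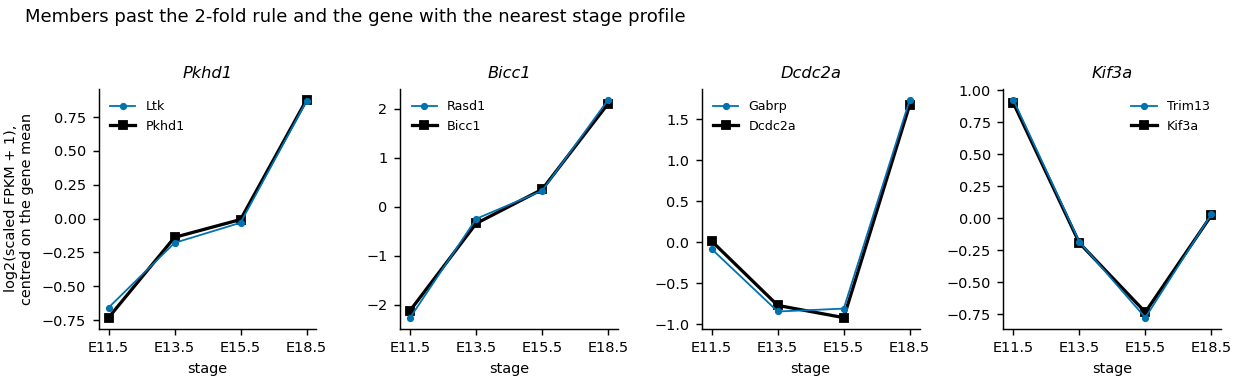
Stage profiles of Pkhd1, Bicc1, Dcdc2a and Kif3a (black) with the gene nearest to each (blue), as log2 of scaled FPKM + 1 centred on each gene's mean, against stage. Pkhd1 and Bicc1 are lowest at E11.5, Dcdc2a and Kif3a at E15.5.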

How the data were processed

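RNA sequencing of 4 fetal pancreas samples, 1 per stage, was used. The authors deposited FPKM, 1 column per stage headed as an average, per the file headers. HISAT2 version 2.0.5 and build mm10 are named per the submitters' processing notes. The counting tool and annotation were not stated in these sources. Gene symbols (54495 of 54532 IDs), positions and lengths were read from GENCODE M21.

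FPKM times exon length was the sum of whole reads from 2 libraries. A mean was split where 1 pair of whole reads gave it within rounding and at most 0.05 pairs were expected by chance, which held for 96.6% to 96.8% of genes attempted. No label states this split. The spread between libraries was 1.41 to 1.55 times that of counting. Stages were divided by median-of-ratios factors (0.988, 1.03, 1.03 and 0.962) from 9884 genes. On log2(FPKM + 1), limma 3.58.1 (R 4.3.3, with an intensity trend) was fitted to 13158 genes. The split and the fit were tested on simulated data. Of 14838 measured genes, 1680 had no test because a mean was not split.

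The members and lists were chosen with earlier results of these data known. Named genes are the members, in each list the 3 with the largest differences in each direction past the 2-fold rule and the 2 highest levels, and the nearest profiles. The promoter letters were chosen after sequences were seen. Consecutive comparisons share samples. Alternatives were the scaling, the pseudocount, the filter, the fold rule, the trend and leaving out each library. A few genes that the rule names, and 2 further motif searches, are not reported here.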

Additional observations from a re-analysis of the deposited data

How the results depend on the processing

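Calls made with a library left out assume that the lone library of its stage varies like the others. Leaving out each library in turn kept the sign of every member's log2 difference at E18.5 against E15.5. It was -0.125 to -0.0907 for Rfx3 and above 0 for the other members, lowest for Foxj1 at 0.360 to 0.640. In the other comparisons the sign changed only for Foxj1, Ift88, Arl13b and Pkd2, with ranges given below. With equal FPKM totals 0 members rose and 8 fell at E15.5 against E13.5, 1 was 2-fold lower there, and 3 fell at E18.5 against E13.5. Of all tested genes 8.5% rose and 60.5% fell in the first of these comparisons, and 17.8% and 47.3% in the second. A 1.5-fold rule gave 3 higher and 3 lower at E13.5 against E11.5, 1 higher at E15.5 against E13.5 and 5 higher at E18.5 against E15.5, and a pseudocount of 0.1 also gave 5 higher there. A 3-fold rule gave 0 lower at E13.5 against E11.5. The shares of all measured genes past the fold rules in these settings, equal totals included, are not given here. These fold-rule counts therefore have no background beside them. With equal totals the log2 difference turned to -0.0213 for Foxj1 at E13.5 against E11.5, to -0.10 for Pkhd1, -0.39 for Ift88, -0.34 for Rfx3 and -0.44 for Arl13b at E15.5 against E13.5, to 0.0247 for Rfx3 at E18.5 against E15.5, and to -0.35 for Pkd2, -0.22 for Kif3a and -0.32 for Rfx3 at E18.5 against E13.5. With deposited FPKM it was -0.0726 for Pkd2 and -0.0487 for Rfx3 at E18.5 against E13.5, the calls of Ift88 at E13.5 against E11.5 and of Kif3a at E18.5 against E13.5 were lost (limma adjusted p = 0.0901 and 0.0932), and Rfx3 was called lower at E18.5 against E15.5 (limma adjusted p = 0.0277). Leaving out a library gave -0.0958 to 0.16 for Foxj1 at E13.5 against E11.5, -0.0663 to 0.1412 for Ift88 and -0.0339 to 0.0768 for Arl13b at E15.5 against E13.5, and -0.0261 to 0.0298 for Pkd2 at E18.5 against E13.5. The causes were not tested. Depth limits Foxj1 at every stage and Pkhd1 at E11.5. No paired analysis was possible because the labels carry no replicate numbers. A count-model test on the recovered reads was not run.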

Other observations

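Pkd2l2, a polycystin-2-like gene, was at 0.984, 1.41, 4.52 and 1.45 FPKM in the order of stages, with its highest level at E15.5. Its means could not be split into whole reads at every stage, so it had no test. In the doublecortin family, Dclk3 rose from 0.150 ± 0.0435 FPKM at E15.5 to 2.21 ± 0.154 at E18.5 (SD, n = 2) and passed the filter only through that stage, which favours such a rise. Dclk1 and Dclk2, which passed it only through E11.5, fell from 4.99 ± 0.144 and 3.29 ± 0.323 at E11.5 to 0.0156 ± 0.0166 and 0.0913 ± 0.0181 at E13.5.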
